A study of Mus musculus with 13 samples.

Results

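The 9 high mobility group (HMG) genes described here were Hmgb1, Hmgb2, Hmgb3, Hmga1, Hmga2, Hmgn1, Hmgn2, Hmgn3 and Hmgn5, and all 9 were found among the 22656 genes of the table. Another 11 rows with Hmga, Hmgb or Hmgn symbols, Hmga1b among them, were not members, and 1 of these passed the filter on low values. They were chosen by family membership, by matching gene symbols. Hmgb2 is the exception, since it was picked for its measured pattern between the groups, so its values are given as a description with no test. The libraries came from mouse melanoma cells of the line B16F10-TR-shApoe, which carries a hairpin against Apoe in both groups, so no library here is without the hairpin. The cells were injected into the tail vein of knock-in mice with the human APOE2 allele (8 libraries) or the human APOE3 allele (5 libraries), 100000 cells per mouse. On day 15 the lungs were digested, and GFP+ CD45- cells with low TO-PRO-3, a dye that enters dead cells, were sorted. The allele differs in the host and not in the melanoma cells, the labels give neither age nor sex nor any pooling of mice, and the sort removes leukocytes only by CD45. QuantSeq libraries read the 3′ end of polyadenylated RNA.

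HMG proteins are small, abundant chromatin proteins that are not histones. HMGB proteins bend DNA through HMG boxes, HMGA proteins bind the minor groove of AT-rich DNA through AT hooks, and HMGN proteins bind the nucleosome itself and compete with linker histone H1 for it. Many are high in dividing and embryonic cells and in tumours, and HMGB1 also leaves dying or stressed cells and acts on receptors of other cells.

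The promoters of the 3 HMGB genes are shown because Hmgb2 is the member with the pattern and the other two are its closest relatives. Each line is the 250 bases before the RefSeq start, on the gene's own strand (GRCm38.p6): chr5:149053058-149053307 on the minus strand for the first of 2 Hmgb1 windows, chr8:57511593-57511842 on the plus strand for Hmgb2, and chrX:71555667-71555916 on the plus strand for Hmgb3. Capitals mark the CCAAT box (CCAAT, bound by NF-Y) and the cell cycle homology region element (CHR, TTTGAA, found in many genes of the G2 phase and mitosis), on either strand.
Hmgb1: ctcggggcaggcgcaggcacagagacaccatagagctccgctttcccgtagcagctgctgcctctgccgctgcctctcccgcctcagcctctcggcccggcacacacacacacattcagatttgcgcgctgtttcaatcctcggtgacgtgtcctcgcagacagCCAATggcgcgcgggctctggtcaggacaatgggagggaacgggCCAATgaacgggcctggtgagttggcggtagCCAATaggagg
Hmgb2: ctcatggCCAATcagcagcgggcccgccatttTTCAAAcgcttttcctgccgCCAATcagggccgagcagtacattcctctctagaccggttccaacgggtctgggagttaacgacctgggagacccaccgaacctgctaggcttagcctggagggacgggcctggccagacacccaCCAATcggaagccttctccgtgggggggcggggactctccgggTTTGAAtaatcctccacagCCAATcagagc
Hmgb3: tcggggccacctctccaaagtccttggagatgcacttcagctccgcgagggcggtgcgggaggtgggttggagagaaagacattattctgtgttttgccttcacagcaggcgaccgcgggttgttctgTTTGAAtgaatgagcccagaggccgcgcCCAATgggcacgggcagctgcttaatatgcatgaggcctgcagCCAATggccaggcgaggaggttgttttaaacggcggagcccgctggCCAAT
The Hmgb2 window held 4 CCAAT boxes, with 238, 193, 68 and 6 bases between the motif and the start, and 2 CHR elements, with 212 and 24 bases. The Hmgb3 window held 3 CCAAT boxes and 1 CHR element. The Hmgb1 window held 3 CCAAT boxes and no CHR element, and its other window held neither. Of the 27025 genes with a window of this length, 3.23% held at least 3 CCAAT boxes, 18.3% a CHR element and 6.45% both a CCAAT box and a CHR element. Of the other members, Hmgn1 and Hmgn5 held 2 CCAAT boxes each, and Hmga1, Hmga2 and Hmgn2 held none of these motifs. The E2F motif, searched as TTTCCCGC or TTTGGCGC on either strand, was in none of the 8 members with an entry and in 1.51% of all genes. None of the marked motifs overlapped another. A match is a description of the letters and not a site. Hmgn3 had no entry.

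Hmgb2 (chr8:57511907-57515999, plus strand, GENCODE M21 on GRCm38, as for the positions below), a DNA-bending protein typical of dividing cells, was higher in melanoma cells from APOE2 mice. Its normalised count (reads divided by a size factor per library) ran from 666.2 over a median of 776 to 972 in the 8 APOE2 libraries. The APOE3 libraries 1 to 5 had 661.5, 489.2, 601.5, 273.0 and 483.6. The groups did not overlap, although the lowest APOE2 library and the highest APOE3 library lay next to each other, and APOE3 replicate 4 was the lowest. The means were 803 ± 120 (SD, n = 8) and 502 ± 149 (SD, n = 5), a ratio of 1.60, and the log2 difference was 0.73 ± 0.17 (SE). Leaving out 1 library at a time moved it between 0.52, without APOE3 replicate 4, and 0.84, without APOE3 replicate 1. APOE3 replicate 4 also had the highest summed normalised counts of the 13 libraries for markers of lung epithelium (22188), leukocytes (13067), fibroblasts and smooth muscle (2961) and endothelium (2323), and their part in its Hmgb2 value was not tested. In bulk samples fewer cells of a type and less RNA per cell cannot be told apart. No source says that libraries came from separate mice, so errors and p-values measure the spread between these libraries.

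**Figure D1:**
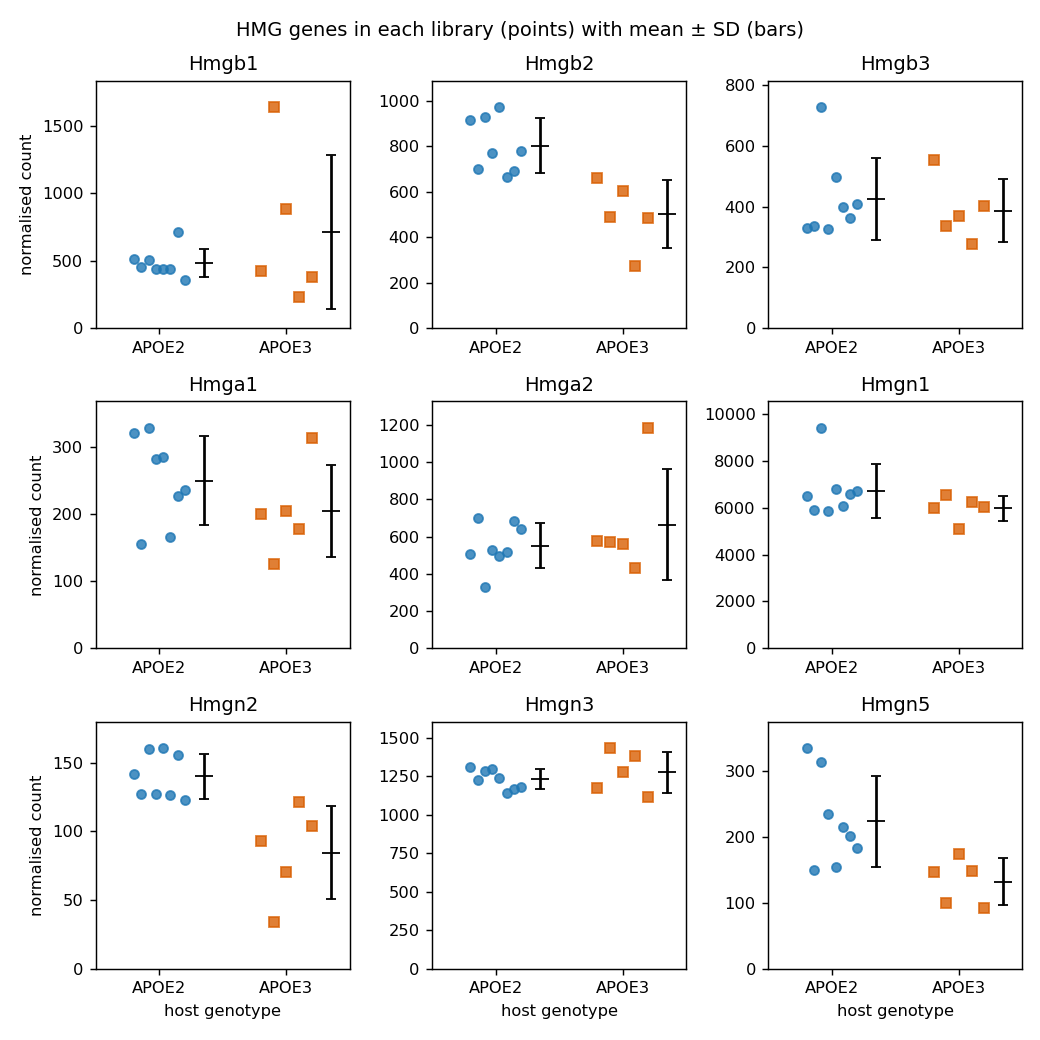
Normalised count (vertical axes, from 0) of the 9 HMG genes in each APOE2 library (circles, 8) and APOE3 library (squares, 5), with mean ± SD as bars. Hmgb2 and Hmgn2 show groups that do not overlap, and Hmgb1 shows 1 APOE3 library at 1639.

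None of the 8 members other than Hmgb2 was called, and Hmgb2 was not tested. With limma (two-sided, Benjamini-Hochberg over 12403 genes, threshold 0.05) 0 of 8 passed, against 0.790% of all genes tested, and edgeR and DESeq2 on the recovered reads also called 0 of 8. At an unadjusted p under 0.05, 2 of the 8 passed, Hmgn2 and Hmgn5, both higher in APOE2, against 14.2% of all genes in either direction and 7.51% in that direction. Of the 8, 5 had a log2 difference above 0 and 3 below 0, with a median of 0.14, beside a median of 0.00037 over all genes tested. All 9 members passed the filter on low values (a mean of at least 10 over the 13 libraries).

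Hmgb1 (chr5:149046702-149184489, minus strand) is the HMGB protein with the extracellular role. It ran from 353 over a median of 447 to 712 in APOE2. The APOE3 libraries 1 to 5 had 420.3, 1639.5, 887.7, 232.5 and 377.2, so APOE3 held both the highest and the lowest library. The means were 481 ± 105 (SD, n = 8) and 711 ± 574 (SD, n = 5), and the limma log2 difference was -0.24 ± 0.30 (SE, adjusted p = 0.761 by Benjamini-Hochberg). The difference was 0.15 without APOE3 replicate 2 and -0.55 without APOE3 replicate 4, so no direction is given. The coefficient of variation within APOE3 was 80.7%, against a median of 20.7% in the 200 genes of nearest mean. Exons of Mm2pr on the same strand and Uspl1 on the other overlap Hmgb1, and whether counting used strand is not given in the sources used here.

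The 3 libraries highest in Hmgb1 were also the richest in Gm42418, a noncoding row that overlaps ribosomal RNA sequence. The 3 libraries with the highest Gm42418 were APOE3 replicate 2 (325223, 3.74% of counts), APOE3 replicate 3 (247147, 3.03%) and APOE2 replicate 7 (182930, 2.17%), and they were the 3 highest for Hmgb1 in the same order. Outside these 3 the order was not shared. APOE3 replicate 4, at 104516 for Gm42418, had the lowest Hmgb1 (232.5), and APOE2 replicate 3, with the lowest Gm42418 (56568), had 501.9. Hmgn2 was lowest in the first of these libraries (33.9) and next lowest in the second (70.8). In APOE2 replicate 7, by contrast, Hmgn2 was 155, among the 3 highest libraries. With these 3 libraries left out, a choice made after seeing the data, the log2 difference was 0.42 for Hmgb1 (limma adjusted p = 0.403), 0.87 for Hmgb2 and 0.38 for Hmgn2 (limma adjusted p = 0.605). The part of Gm42418 in these values was not tested.

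**Figure D2:**
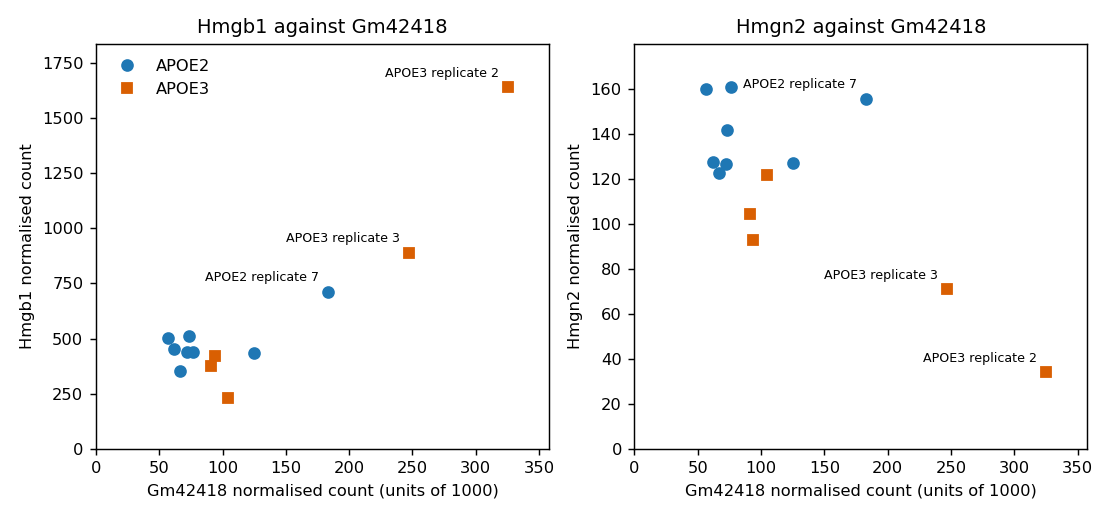
Normalised counts of Hmgb1 (left) and Hmgn2 (right) against Gm42418 (axis in units of 1000), 1 point per library, APOE2 as circles and APOE3 as squares, axes from 0. The 3 libraries with most Gm42418 are the 3 with most Hmgb1, and the 2 APOE3 libraries among them have the lowest Hmgn2.

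Hmgb3 (chrX:71555918-71560676, plus strand), known from blood stem and progenitor cells, ran from 328 over 380 to 726 in APOE2. In APOE3 the 5 libraries, in order of replicate, had 553.0, 334.4, 369.4, 274.9 and 400.3, and the groups overlapped over most of their range. The limma log2 difference was 0.12 ± 0.19 (SE, adjusted p = 0.824), and it ran from 0.00072, without APOE2 replicate 3, to 0.26, without APOE3 replicate 1. The ratio of Hmgb2 to Hmgb1 normalised counts had a median of 1.78 in APOE2 (range 0.971 to 2.22) and of 1.17 in APOE3 (range 0.298 to 1.57). Since Hmgb2 was picked on this contrast, the ratio is only a description. The lowest APOE3 ratios, 0.298 and 0.678, were in replicates 2 and 3, both rich in Gm42418 and highest in Hmgb1. The sum of the 3 HMGB genes had medians of 1650 and 1635, with ranges of 1490 to 2158 and 780 to 2463, so the summed counts overlapped although those of Hmgb2 did not.

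The HMGA genes encode architectural proteins of embryonic and transformed cells. Hmga1 (chr17:27556497-27563674, plus strand) ran from 155 over 260 to 329 in APOE2. The APOE3 libraries 1 to 5 had 201.2, 125.4, 205.0, 177.9 and 313.5. The groups overlapped, and the limma log2 difference was 0.31 ± 0.22 (SE, adjusted p = 0.565). It was 0.15 without APOE3 replicate 2, 0.47 without APOE3 replicate 5 and 0.13 without the 3 libraries rich in Gm42418. Exons of AI413582 and Gm49774 overlap Hmga1 on the other strand, and its transcript end has a near-identical copy in Hmga1b, which had a mean of only 2.64 normalised counts.

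Hmga2 (chr10:120361275-120476469, minus strand) is known as a target of the let-7 microRNAs, whose mature sequence is shown with its seed (bases 2 to 8) in capitals.
mmu-let-7a-5p: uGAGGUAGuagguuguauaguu
The seed match CTACCTC occurred 4 times in the 3014 bases of the Hmga2 3′ UTR and once in that of Hmga1, and in none of the other 7 members. Of 21007 genes with a 3′ UTR, 9.02% held at least 1 match and 0.0571% held as many as Hmga2. MicroRNAs were not measured here. Hmga2 ran from 331 over 522 to 703 in APOE2, and the APOE3 libraries 1 to 5 had 576.2, 571.7, 557.8, 431.1 and 1183.6. APOE3 replicate 5 stood apart and the groups overlapped. The limma log2 difference was -0.21 ± 0.20 (SE, adjusted p = 0.669) with all libraries and 0.018 without APOE3 replicate 5. Exons of 1700006J14Rik overlap Hmga2 on the other strand.

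Among the nucleosome-binding HMGN genes, Hmgn2 and Hmgn5 had the highest APOE2 values relative to APOE3. Hmgn2 (chr4:133964738-133968650, minus strand) ran from 123 over 134 to 161 in APOE2. In APOE3 replicates 1 to 5 it was 92.7, 33.9, 70.8, 121.4 and 104.1. The groups did not overlap, by the narrow gap between 122.6 and 121.4. The means were 140.1 ± 16.4 (SD, n = 8) and 84.6 ± 33.8 (SD, n = 5), and the limma log2 difference was 0.83 ± 0.26 (SE, unadjusted p = 0.00425, adjusted p = 0.144). Without APOE3 replicate 2 it was 0.54 (limma adjusted p = 0.305). Hmgn2 was the 1 gene of the 8 whose APOE2 libraries all lay above all APOE3 libraries, which held for 0.476% of all genes tested. Its values rest on 30 to 208 reads per library, and its transcript end has a near-identical copy in 1 other gene, not analysed here. Without molecular identifiers, reads can be copies of the same molecule, so such totals can understate the counting error.

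Hmgn5 (chrX:109004534-109013404, minus strand), an HMGN protein with a long acidic tail that binds linker histone, ran from 150.4 over 208 to 335 in APOE2. The APOE3 libraries 1 to 5 had 147.5, 99.4, 174.8, 147.8 and 92.6. The groups overlapped, since 6 of 8 APOE2 libraries lay above the highest APOE3 library. The means were 224 ± 68.6 (SD, n = 8) and 132 ± 35.1 (SD, n = 5), and the limma log2 difference was 0.74 ± 0.23 (SE, unadjusted p = 0.00353, adjusted p = 0.134). For Hmgn2 and Hmgn5 all 8 APOE2 libraries lay above the APOE3 mean of the log2 values. The same held for Hmgb2, which was picked on this contrast. Outside the family it held for Tfam, Cenpa and Anp32a among others, none of these called by limma. The share over all genes was not computed, so this count does not set the members apart.

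Hmgn1 (chr16:96120618-96127729, minus strand) ran from 5844 over 6519 to 9399 in APOE2. In APOE3 replicates 1 to 5 it was 5982.2, 6522.9, 5093.1, 6261.1 and 6027.7. APOE2 replicate 3 was the highest library, the groups otherwise overlapped, and the limma log2 difference was 0.16 ± 0.11 (SE, adjusted p = 0.556), or 0.087 without APOE2 replicate 3.

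Hmgn3 (chr9:83109948-83146685, minus strand) varied little. It ran from 1139 over 1235 to 1309 in APOE2, and the APOE3 libraries 1 to 5 had 1174.5, 1432.7, 1279.0, 1380.0 and 1115.3. Its coefficient of variation within APOE2 was 5.19%, against a median of 12.1% in the 200 genes of nearest mean. The limma log2 difference was -0.05 ± 0.10 (SE, adjusted p = 0.883). Exons of Gm2065 and Gm29054 overlap Hmgn3 on the other strand.

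**Figure D3:**
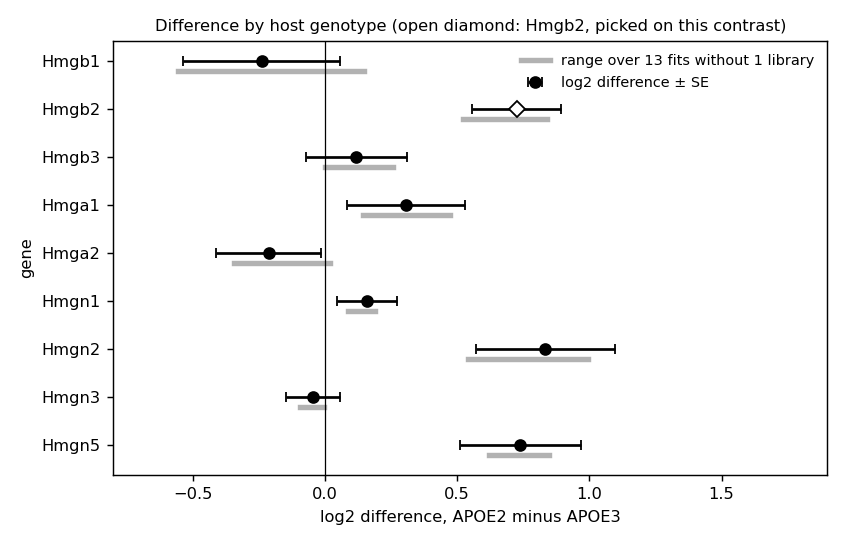
Log2 difference between APOE2 and APOE3 (horizontal axis) for each HMG gene with its SE, and the range over the 13 fits that leave out 1 library as a grey bar. Hmgb2 (open diamond), Hmgn2 and Hmgn5 have the highest differences, and the ranges of Hmgb1 and Hmga2 cross 0.

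Genes around the HMG proteins, chromatin partners as well as general cell cycle genes, were taken as 9 lists of 198 genes. Of the 198 genes, 181 were in the table and 169 were tested. Of these 169, 1 was called by limma (0.592%) and 30 passed an unadjusted p under 0.05 (17.8%), beside 0.790% and 14.2% of all genes tested. The called gene was Nusap1, a microtubule protein of the mitotic spindle, in the G2/M list. Its normalised counts averaged 682 ± 170 in the 8 APOE2 libraries (SD) against 364 ± 141 in the 5 APOE3 libraries (SD), with a limma log2 difference of 0.97 ± 0.21 (SE, adjusted p = 0.0301). The call was lost without APOE2 replicate 2, 3, 5 or 7 and without APOE3 replicate 3, 4 or 5, with adjusted p from 0.0501 to 0.0825, and Oip5 overlaps its exons on the other strand.

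Of 53 G2/M genes 37 had a log2 difference above 0 and 16 below (median 0.07). At an unadjusted p under 0.05, 7 were higher and 0 lower, which is 13.2% of them. Over all genes tested 14.2% passed that p in either direction, and 7.51% passed it higher in APOE2. Of 42 S phase genes 26 were above 0 and 16 below (median 0.04), with 8 higher and 3 lower at that p, which is 26.2% of them, and 0 called by limma with all libraries. Gmnn, an inhibitor of replication licensing, had a log2 difference of 0.63 ± 0.17 (SE, limma adjusted p = 0.0696). It was called by DESeq2 (adjusted p = 0.0372) and by limma without APOE3 replicate 1 (adjusted p = 0.0182). Without APOE3 replicate 4 it was 0.49, and with 1 library left out its limma adjusted p reached 0.186. Cdca7 had 0.80 ± 0.28 (SE, limma adjusted p = 0.195) and Ubr7 0.35 ± 0.13 (SE, limma adjusted p = 0.212). Without APOE3 replicate 2 these were 0.53 and 0.22, and without the 3 libraries rich in Gm42418 they were 0.27 and 0.21. Over all genes 50.1% were above 0.

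Within the 8 APOE2 libraries, where the contrast that picked Hmgb2 does not enter, Hmgb2 was set against 3 measures on the log2 scale. With the mean of the G2/M genes Pearson's r was 0.11 (exact permutation p = 0.804) and Spearman's rho was -0.07 (exact permutation p = 0.882). With the mean of the S phase genes r was 0.06 (exact permutation p = 0.887) and rho was 0.24 (exact permutation p = 0.582). With Hmgb1 r was -0.13 (exact permutation p = 0.791) and rho was -0.14 (exact permutation p = 0.752). Benjamini-Hochberg adjustment over the 3 gave 0.887 for each r and 0.882 for each rho. Without the 2 libraries farthest from the median of the x measure r was 0.03, 0.19 and 0.49, so no relation was detectable with 8 libraries. The 5 APOE3 libraries are too few for a correlation.

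**Figure D4:**
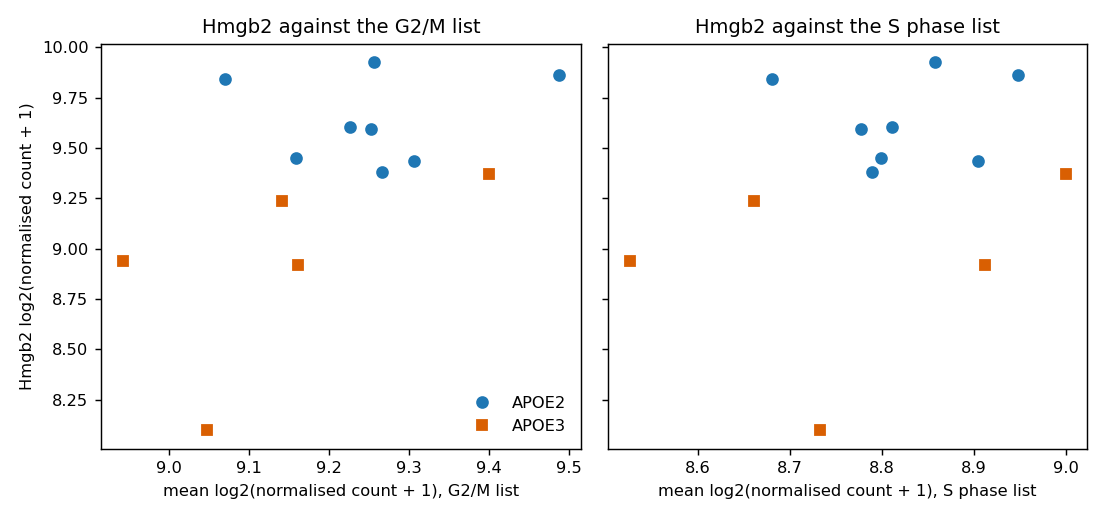
Hmgb2 on the log2(normalised count + 1) scale against the mean of the G2/M genes (left) and of the S phase genes (right), 1 point per library. APOE2 libraries (circles) lie above APOE3 libraries (squares) on the vertical axis, which is the contrast that picked Hmgb2, and both groups spread along the horizontal axis.

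With all libraries limma called 0 of the tested histone variants, histone chaperones and linker histones. Over all genes tested 14.2% passed an unadjusted p under 0.05 in either direction, and 7.51% passed it higher in APOE2. Of 8 histone variants tested 5 were above 0 (median 0.23), and 3 (37.5%) passed that p, all higher. These were H2afx, the variant phosphorylated at DNA breaks, with a log2 difference of 0.70 ± 0.20 (SE, limma adjusted p = 0.103), H2afv at 0.35 ± 0.11 (SE, limma adjusted p = 0.134) and the centromeric Cenpa at 0.32 ± 0.14 (SE, limma adjusted p = 0.296). DESeq2 on the recovered reads called H2afx (adjusted p = 0.0413) and H2afv (adjusted p = 0.0468), and limma called H2afx without APOE3 replicate 1 (adjusted p = 0.0499). With 1 library left out, H2afx was as low as 0.575 (without APOE3 replicate 2) and H2afv as low as 0.30 (without APOE3 replicate 1). Their limma adjusted p then reached 0.203 and 0.232 at most. Without the 3 libraries rich in Gm42418 the median of the list was 0.09 and Cenpa was at 0.066. Cenpa was at 0.20 without APOE3 replicate 2. Of 20 histone chaperones 13 were above 0 (median 0.04), with 3 higher and 1 lower at that unadjusted p, which is 20% of them. Anp32e, which removes H2A.Z from nucleosomes, had 0.35 (limma adjusted p = 0.201), Rbbp4 0.33 (0.250) and Chaf1b -0.48 (0.226). Without the 3 libraries rich in Gm42418, Anp32e was at 0.14 and Rbbp4 at 0.12, and Rbbp4 was at 0.22 without APOE3 replicate 2. Of 5 linker histones, the competitors of HMGN proteins, 3 were above 0 (median 0.14) and none passed an unadjusted p under 0.05, with Hist1h1e at 0.68 (limma adjusted p = 0.355), Hist1h1c at 0.14 (0.787) and H1fx at -0.79 (0.697). With 1 library left out, Hist1h1e was as low as 0.41 (without APOE3 replicate 5; 1.22 without the 3 libraries rich in Gm42418) and Hist1h1c ran from 0.017 (without APOE3 replicate 2) to 0.34 (without APOE3 replicate 1). H1fx, with only 0 to 32 reads per library, was at -0.34 without APOE2 replicate 3 and at -0.21 with edgeR. Polyadenylated RNA holds few transcripts of replication-dependent histones, which mostly end without a poly(A) tail. Gm44335 overlaps H2afx, Gm26722 and Sync overlap Rbbp4, Gm47286 and Gm5577 overlap H1fx, and Gm11398 and Hist1h2be overlap Hist1h1e.

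Of 21 other HMG-box genes tested 9 were above 0 and 12 below (median -0.04), and 0 were called. At an unadjusted p under 0.05, 14.3% of them passed, beside 14.2% of all genes tested. The genes that passed were Tfam, the packaging protein of mitochondrial DNA, at 0.34 (limma adjusted p = 0.308), Sox6 at -0.28 (0.306) and Hmg20b at -0.36 (0.306). Without the 3 libraries rich in Gm42418 these were 0.22, -0.18 and -0.20, and Hmg20b was at -0.20 without APOE3 replicate 2. The 4 tested partners of HMGB2 in the SET complex were near 0, with Set at 0.15 (limma adjusted p = 0.561), or 0.10 without APOE2 replicate 3, Anp32a at 0.16 (0.563) and Apex1, whose exons Pip4p1 overlaps, at -0.12 (0.815), or above 0 without APOE3 replicate 1 or 5. Of 10 tested genes around let-7 and Hmga2, 5 were above 0 and 5 below (median 0.04), and the nuclear microRNA-processing genes Drosha and Dgcr8 were at -0.34 (limma adjusted p = 0.230) and -0.42 (0.406). Without the 3 libraries rich in Gm42418 Drosha was at -0.18. Igf2bp2 was at -0.69 (limma adjusted p = 0.502), or -0.43 without APOE2 replicate 3. Gm47288 overlaps Drosha, and Gm24572, Gm49776, Mir1306 and Trmt2a overlap Dgcr8.

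The list named for HMGB1 receptors and extracellular partners had 8 of 12 tested genes below 0 (median -0.15), and 0 called by limma with all libraries. Beside 14.2% of all genes tested, 33.3% of the list passed an unadjusted p under 0.05, 1 higher and 3 lower. It is a mixed list, since 6 of the 12 are nuclear or export genes that act on HMGB1 inside the cell (Xpo1, Sirt1, Parp1, Kat2b, Hdac1 and Hdac4), and the 1 higher gene was Parp1, at 0.23 (limma adjusted p = 0.348). The 3 lower genes were Thbd, Ager and Cxcl12. Thbd, which binds HMGB1 on endothelium, averaged 53.1 ± 24.9 in the 8 APOE2 libraries (SD) against 159 ± 91.6 in the 5 APOE3 libraries (SD), with a log2 difference of -1.42 ± 0.41 (SE, limma adjusted p = 0.107). It was called by edgeR (adjusted p = 0.0378) and DESeq2 (adjusted p = 0.00683), and by limma without APOE3 replicate 2 (adjusted p = 0.0195). Without APOE3 replicate 5 it was -1.15, and with 1 library left out its limma adjusted p reached 0.226. Ager, the receptor for advanced glycation end products and also a marker of lung epithelium, had -1.71 ± 0.55 (SE, limma adjusted p = 0.154). Limma called it without APOE3 replicate 1, at -2.17 (adjusted p = 0.0384). Without APOE2 replicate 5 it was -1.48, and with 1 library left out its limma adjusted p reached 0.267. With all libraries the chemokine Cxcl12 had -1.73 ± 0.75 (SE, limma adjusted p = 0.298). Its values rest on only 0 to 68 reads per library, and the log2 difference was -1.21 without APOE2 replicate 3. Most markers of lung epithelium and endothelium also had lower medians in APOE2, and the lung epithelium markers include Ager. The summed normalised counts of 18 lung epithelium markers ran from 826 to 4294 in APOE2 and from 3657 to 22188 in APOE3, with 15 of 18 medians lower in APOE2 and Scgb3a2 at 0 in all APOE3 libraries. The 15 endothelium markers ran from 802 to 1235 and from 1101 to 2323, with all 15 medians lower in APOE2. Their part in these results was not tested.

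**Figure D5:**
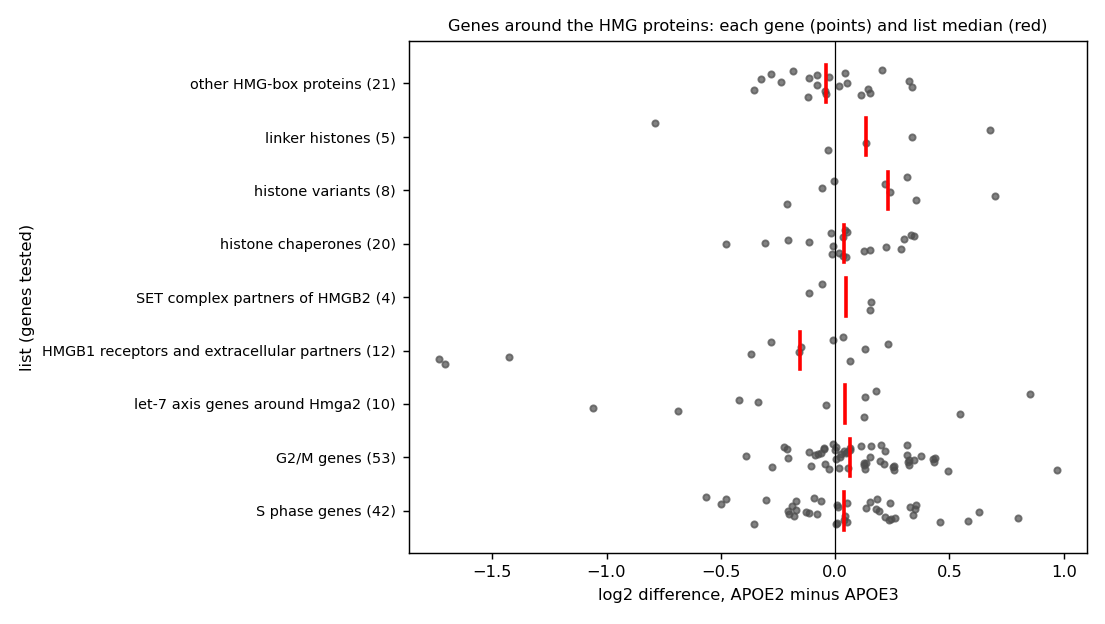
Log2 difference between APOE2 and APOE3 (horizontal axis) for each tested gene (points) of 9 lists of genes around the HMG proteins, with the number tested in parentheses and the list median in red. The medians lie between -0.15 and 0.23, and the points farthest below 0 are Cxcl12, Ager and Thbd.

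The 5 genes whose values were most like Hmgb2 over the 13 libraries, of 9671 genes with a mean of at least 50, were Rab27a (r = 0.94), Pygo1 (0.91), Smc6 (0.91), 3110040N11Rik (0.90) and Zcchc8 (0.90). Rab27a moves melanosomes to the cell edge, and Smc6 is a chromosome-maintenance ATPase. Since the groups differ in Hmgb2, part of each r is the genotype difference. After subtracting genotype means the r values were 0.87, 0.80, 0.80, 0.77 and 0.76, which ranked 6, 32, 29, 54 and 61 among all candidates, so other genes were more like Hmgb2 within genotypes. The points share libraries and size factors. Gm27186 overlaps Rab27a and Gm45016 overlaps 3110040N11Rik. The 9 HMG genes together had a summed median of 10679 normalised counts in APOE2 and 9809 in APOE3, with overlapping ranges of 9745 to 13979 and 9239 to 11249. Hmgn1 alone averaged 6434 over the 13 libraries, so it makes up most of the sum. The highest sum was that of APOE2 replicate 3, also the highest library for Hmgn1 (9399). Hmgb2, picked on this contrast, is part of the sum.

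The libraries held 7080308 to 13039989 recovered reads. Apoe, the hairpin's target, had reads in every library, from 1217 to 2101 normalised counts in APOE2 and from 1193 to 2369 in APOE3. All 10 melanocyte markers had reads in every library, with 4 medians lower in APOE2. Their sum ran from 351960 to 509415 in APOE2 and from 278989 to 388703 in APOE3. Dct alone, 1 of the 10, ran from 176606 to 323071 in APOE2 and from 101484 to 208301 in APOE3. The fibroblast and smooth muscle sum (13 markers, 12 medians lower in APOE2) ran from 416 to 1077 and from 584 to 2961, the leukocyte sum (20 markers, 10 medians lower) from 534 to 2634 and from 2226 to 13067, and the erythroid sum (5 markers, 1 median lower) from 40.6 to 189 and from 23.2 to 220. Their part in the Hmgb2, Hmgn2 and Hmgn5 values was not tested.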

How the data were processed

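Melanoma cells from 13 mouse lung samples were measured by 3′ RNA-seq. The table that the authors deposited holds a signal per gene, normalised counts, in 22656 rows and 13 columns. The submitters' processing notes name STAR 2.6.0, featureCounts, DESeq2 1.28.1 and build mm10; the annotation and strand setting are not given in the sources used here. Each library had 1 step of which 100% of its nonzero values were whole multiples (relative tolerance 1e-06), which gave back whole reads. Size factors computed from those reads by the median of ratios equalled the ones in the deposited values. GENCODE M21 (GRCm38) gave symbols for 22649 identifiers, coordinates and overlaps; 7 had none.

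Genotype came from the labels. Log2(value + 1) of 12403 genes with a mean of at least 10 was fitted with limma 3.58.1 (intensity trend, two-sided) in R 4.3.3. Benjamini-Hochberg adjustment was over all these genes. For low genes, differences on this scale can depart from the ratio of the means in either direction. H1fx had a ratio of means of 0.859 beside a log2 difference of -0.79, and Cxcl12 had 0.439 beside -1.73. Promoters and microRNAs are from RefSeq, and transcript ends were compared with BLAST 2.17.0 (last 300 bases, at least 95% identity over 100 bases). The limma step was tested on simulated data. Alternatives were pseudocounts 0.5 and 5, no filter or a minimum mean of 50, TMM or equal totals, no trend or robust variance, edgeR 4.0.16 and DESeq2 1.42.0 on recovered reads, each library left out, and a replicate block. Named genes were all members, per list the called genes (at most 6, by smallest p) or else the 3 of smallest p, the 5 most like Hmgb2, and Apoe. Members and lists were chosen with earlier results of these data known.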

Additional observations from a re-analysis of the deposited data

Results flagged for a closer look

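In 5 places a library lay far from the rest of its group by Dixon's test on the log2 values. The values below are normalised counts. Hmga2 was 331 normalised counts in APOE2 replicate 3, against 495 to 703 in the other APOE2 libraries, and 1184 in APOE3 replicate 5, against 431 to 576. Hmgn1 was 9399 in APOE2 replicate 3, against 5844 to 6795. Ager was 19.0 in APOE3 replicate 1, against 83.3 to 107. Ubr7 was 459 in APOE3 replicate 2, against 662 to 761. Of 84 gene and group combinations screened, chance alone flags about 1 in 20, or 4.2. The 5 fall in 4 libraries.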

How the results depend on the processing

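None of the HMG genes tested, which leave out Hmgb2, was called under any alternative. The 51 genes called higher in APOE2 over all genes became 5 with no filter, 0 without the trend, 153 with DESeq2, 17 with the replicate block and 2 without the 3 libraries rich in Gm42418, and 5 to 131 with 1 library left out. The 47 called lower became 73 with a pseudocount of 5, then 4, 0, 158, 26 and 5 under those same settings in order, 77 with edgeR, and 4 to 97 with 1 library left out. The lowest of these came without APOE3 replicate 3 and the highest without APOE3 replicate 1. The 1 called gene of the lists around the HMG proteins became 0 with no filter, without the trend, with the replicate block and without those 3 libraries. The count became 2 with edgeR, 5 with DESeq2, and 0 to 5 with 1 library left out.

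Same-numbered libraries did not deviate together (r from -0.06 to 0.01), and 0 of 5 APOE3 libraries correlated best with their own number, so the numbers are not taken as pairs. With the replicate block Hmgn3 turned to 0.0022. Without the 3 libraries Hmgb1 turned to 0.42 and Hmgn3 to 0.025. Leaving out 1 library gave ranges of -0.55 to 0.15 for Hmgb1 and -0.35 to 0.018 for Hmga2. The range was -0.28 to 0.015 for Apex1, which turned above 0 without APOE3 replicate 1 or 5, and -0.24 to 0.011 for Apoe, which did so without APOE3 replicate 2. The r of Hmgb2 ranged from -0.40 to 0.48 with the G2/M mean, -0.29 to 0.49 with the S phase mean (-0.12 with equal library totals) and -0.22 to 0.37 with Hmgb1. The causes were not tested.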
